A study of Homo sapiens with 9 samples.

Results

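The genes described here are a list for the NRF2 antioxidant response, measured in K562 cells. They are 3 regulators, NFE2L2, KEAP1 and MAFG, and 7 target genes, NQO1, TXNRD1, GCLM, GCLC, SRXN1, OSGIN1 and SLC48A1. They were taken by symbol as 10 genes of the 58347 gene IDs counted, and all 10 were among the 23675 genes that passed the filter on low counts.

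RNA was sequenced from 9 libraries of K562-FIRE, a human erythroleukaemia line (K562) with stable transgenes under the EF1a promoter. Every group carried the same transgenes: dCas9, a Cas9 that binds DNA without cutting it, MS2-Fkbp, and SS18-Frb, a fusion of a subunit of the BAF chromatin remodelling complex. Cells held an sgRNA to the HBG1 promoter, a fetal globin gene, or a non-targeting (NT) sgRNA, and received rapamycin at 10 nM or its solvent DMSO for 24 h, to ask whether BAF drawn to that promoter turns on HBG1. The HBG1 sgRNA cells gave 3 libraries under each treatment, and the NT sgRNA cells gave 2 under rapamycin and 1 under DMSO. Rapamycin joins Fkbp to Frb and, as background, also inhibits mTORC1, so with the HBG1 sgRNA alone recruitment and mTORC1 inhibition cannot be told apart. No label says whether the line is a clone or whether replicates were separate cultures, so the p-values measure only the spread between these samples, which may be technical. A lower level in these bulk samples is relative to the other RNA of the same library. It cannot tell fewer expressing cells, less RNA per cell or more of other RNA apart.

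Libraries held 19797409 to 31619671 counts. Levels are given in CPM, a gene's counts relative to its library's total after TMM scaling. The 6 erythroid markers fixed for K562 were all detected, with summed levels of 3138 to 4954 CPM. The 3 lymphoid and the 3 myeloid markers summed to 1.38 to 3.78 CPM and 0.907 to 3.95 CPM, and the 3 fibroblast markers to 5.21 to 26.4 CPM. Among the erythroid markers, GATA1 rose (log2 fold change 0.31, adjusted p = 0.033, edgeR) and TFRC fell (-0.28, adjusted p = 0.018) under rapamycin with the HBG1 sgRNA, and both were also called with the replicate number as a block (0.00073 and 0.0017). That fit, which compares libraries of the same number, also called HBZ (0.27, adjusted p = 0.0029, 0.372 without the block) and the fibroblast marker COL1A2 (0.55, adjusted p = 0.0092, 0.565 without the block). COL1A2 had 3.01 and 3.66 CPM in HBG1 sgRNA replicate 1 and 9.54 to 24.8 CPM elsewhere. The part of these markers in the results for the NRF2 genes was not tested. Replicate 1 with the HBG1 sgRNA stood apart under both treatments: its chi-square statistic per gene against the other replicates was 14.5 to 16.3, and 4.48 to 7.30 between all other replicates of a group. For rapamycin against DMSO, counts of called genes are also given without that pair.

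NFE2L2 encodes NRF2, a transcription factor of the CNC family. In unstressed cells KEAP1 holds NRF2 for ubiquitination by a CUL3 ligase, and oxidants or electrophiles that modify KEAP1 cysteines let NRF2 escape and accumulate. NRF2 then pairs with a small MAF protein such as MAFG and binds antioxidant response elements (AREs) near genes for quinone reduction, glutathione synthesis and the thioredoxin system, while BACH1 competes for the same elements. Because this control acts mainly on the protein, the NFE2L2 transcript does not itself report NRF2 activity.

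Promoter sequence came from RefSeq (GRCh38.p14), as windows from 250 bases before to 50 after each transcription start, and all 10 genes matched, with 13 windows. The ARE core was searched as TGACNNNGC on both strands. It occurred in 4 of the 13 windows, for 3 of the 10 genes, and in 4687 of all 35116 RefSeq windows (13.3%), for 4384 of 27305 genes (16.1%). The 5 upstream matches are shown with 10 bases on each side, because they lie before the start of genes whose levels are compared here. They read 5′ to 3′ on the strand of the motif, and capitals mark the core.

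GCLM (chr1:93909446-93909474, plus strand): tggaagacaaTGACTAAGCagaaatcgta
TXNRD1, first start (chr12:104215670-104215698, plus strand): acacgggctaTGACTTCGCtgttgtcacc
TXNRD1, second start (chr12:104286920-104286948, minus strand): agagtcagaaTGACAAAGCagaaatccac
KEAP1, site 1 (chr19:10502807-10502835, minus strand): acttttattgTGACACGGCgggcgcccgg
KEAP1, site 2 (chr19:10502784-10502812, plus strand): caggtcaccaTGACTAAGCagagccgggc

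The GCLM core began 34 bases before the start, and the KEAP1 cores 54 and 31 bases before it on opposite strands. The TXNRD1 cores lay 99 bases before the first annotated start and 102 bases before the second. All but the core at the first TXNRD1 start also touch a GENCODE 29 exon. Another TXNRD1 match, GCTCCGTCA, crosses the first start itself. GCLM and the second KEAP1 site share the core TGACTAAGC.

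The AP-1 element, searched as TGANTCA on both strands, occurred in 1 of the 13 windows, that of OSGIN1, 97 bases before its start, and in 7.71% of all windows. It did not overlap an ARE core in any of these windows. The windows of NFE2L2, MAFG, NQO1, GCLC, SRXN1 and SLC48A1 held neither set of letters. For TXNRD1, the stretch before the first start is shown in full. TXNRD1 is the most highly expressed target per length and was called when all HBG1 sgRNA libraries were compared in pairs. Counts per gene do not show which of its starts is used. Capitals mark the upstream ARE core, and the part of the match that crosses the start is left unmarked.

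TXNRD1 upstream stretch (chr12:104215529-104215778, plus strand): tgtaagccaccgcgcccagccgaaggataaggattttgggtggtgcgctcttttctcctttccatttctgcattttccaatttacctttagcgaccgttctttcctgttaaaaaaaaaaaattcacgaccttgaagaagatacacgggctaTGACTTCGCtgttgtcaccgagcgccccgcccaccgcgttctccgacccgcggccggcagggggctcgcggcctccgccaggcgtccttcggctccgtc

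Transcript levels differed among the 10 genes. Per kb of exon, the mean over all 9 libraries was highest for TXNRD1 (34.7 CPM per kb, range 28.9 to 39.4), thioredoxin reductase 1, which keeps thioredoxin reduced. KEAP1 followed at 28.9 (26.0 to 31.8), MAFG at 21.0 (17.3 to 23.2) and SRXN1, the sulfiredoxin that repairs overoxidised peroxiredoxins, at 17.5 (15.9 to 19.4). GCLM, the modifier subunit of the enzyme that limits glutathione synthesis, stood at 15.6 CPM per kb (13.4 to 17.3). NQO1, a quinone reductase, averaged 12.6 (9.04 to 15.4), NFE2L2 12 (10.6 to 13.2) and SLC48A1, a haem transporter, 7.85 (7.27 to 9.44). GCLC, the catalytic subunit of the same enzyme as GCLM, was at 2.33 CPM per kb (1.90 to 2.84), and OSGIN1, an oxidative stress-induced growth inhibitor, at 2.08 (1.65 to 3.01). Neighbours in this order overlapped in range from TXNRD1 to KEAP1 and from MAFG through SRXN1, GCLM and NQO1 to NFE2L2, and so did GCLC and OSGIN1. KEAP1 and MAFG, NFE2L2 and SLC48A1, and SLC48A1 and GCLC did not overlap.

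The spread over all 9 libraries was smallest for SRXN1 (coefficient of variation 7.14%) and largest for OSGIN1 (25.5%), which had 115 to 238 counts per library. Exon overlap limits what some of these counts mean, since the strand setting and the handling of shared reads are not given in the sources used here. SRXN1 shares 2292 of its 2698 exon bases with AL121758.1 on the same strand. NQO1 shares 575 of 3254 with the antisense gene AC092115.2, NFE2L2 1054 of 5979 with AC019080.1, GCLC 529 of 8646 with AL033397.1 and OSGIN1 481 of 3460 with AC009119.2.

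**Figure D1:**
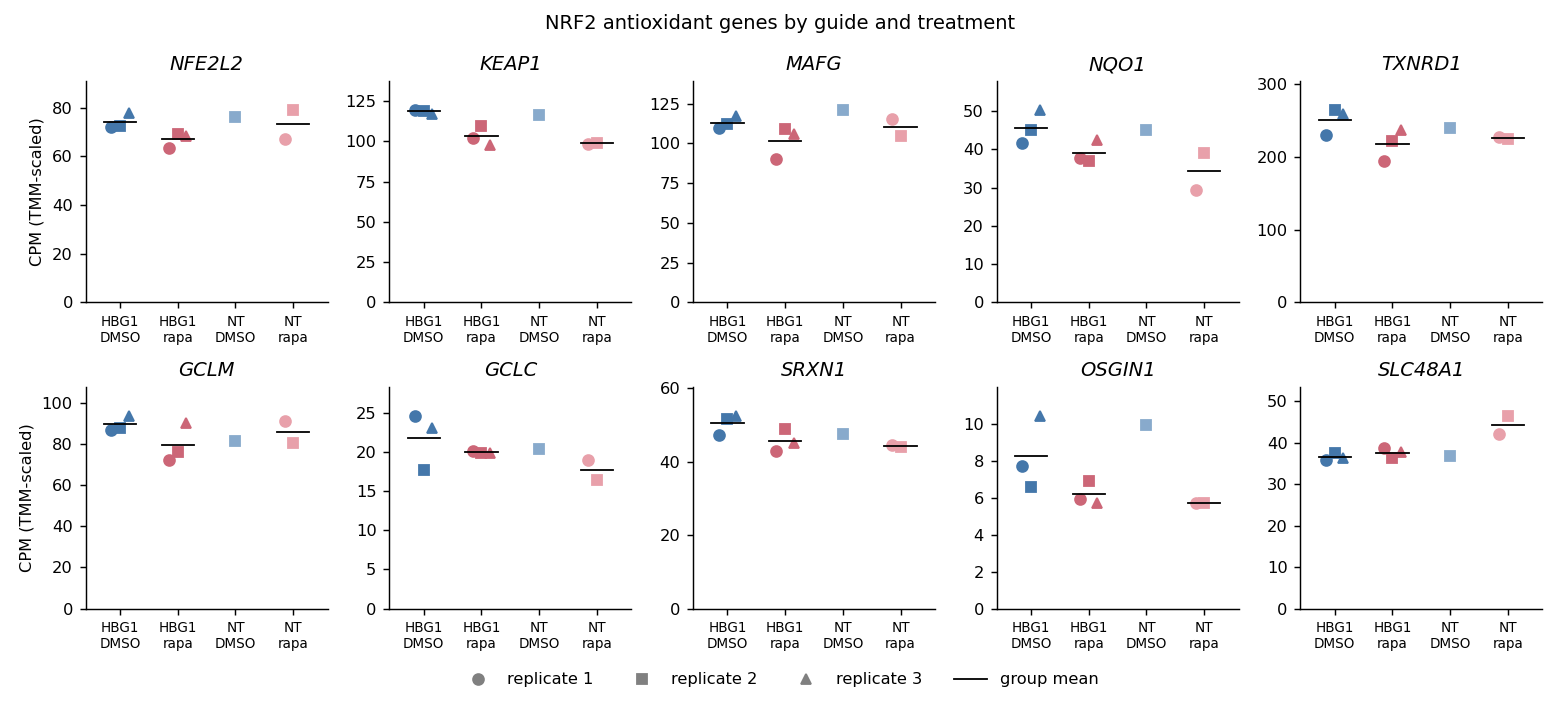
Level of each NRF2 antioxidant gene in each library. The y axes give TMM-scaled CPM from 0, the x axis the 4 groups (HBG1 or NT sgRNA, DMSO or rapamycin, written rapa), symbols mark replicate numbers and lines group means. KEAP1 lies at 97.7 to 109.4 CPM in the 5 rapamycin libraries and at 116.5 to 119.6 CPM in the 4 DMSO libraries, and SLC48A1 is highest in the 2 NT sgRNA libraries with rapamycin.

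Rapamycin was compared with DMSO in the HBG1 sgRNA cells with edgeR's quasi-likelihood test over all 23675 genes, with Benjamini-Hochberg adjustment, and calls required an adjusted p under 0.05. None of the 10 genes was called (0 of 10), beside 6.8% of all tested genes. DESeq2 also called 0 of 10, beside 14.6% of the 14954 genes to which it gave an adjusted p. At an unadjusted p under 0.05 there were 3, KEAP1, TXNRD1 and OSGIN1, beside 20.8% of all genes. The fitted change was below 0 for 9 of the 10, with a median log2 fold change of -0.16, while over all tested genes 47.7% were below 0 and the median was 0.02. With the replicate number as a block, KEAP1 and TXNRD1 fell, 2 of 10 beside 17.1% of the 20179 genes in that fit, or 9.62% lower. With 1 pair fewer the blocked count was 0 of 10 without pair 1 (beside 13.3% of all genes), 4 without pair 2 (15.5%) and 0 without pair 3 (8.95%). Without pair 1 and without the block it was 0 of 10, beside 9.09%.

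Among the regulators, KEAP1 (ENSG00000079999, chromosome 19, 10486120 to 10503741, minus strand) had 119.6, 119.1 and 117.2 CPM in DMSO replicates 1, 2 and 3 with the HBG1 sgRNA. Under rapamycin it had 102.2, 109.4 and 97.7 CPM. The NT sgRNA library with DMSO had 116.5 CPM, and those with rapamycin 98.5 and 99.0 CPM. It was the only one of the 10 genes for which all 5 rapamycin libraries lay below all 4 DMSO libraries, as they did for 8.29% of all tested genes. The mean was 119 ± 1.26 CPM under DMSO and 103 ± 5.91 under rapamycin (SD, n = 3 each, HBG1 sgRNA). The log2 fold change was -0.20 (95% interval -0.35 to -0.05, adjusted p = 0.108 by edgeR), and the blocked fit gave -0.20 with an adjusted p of 0.032. The blocked fold change was -0.19 without pair 1 (adjusted p = 0.137) and -0.17 without pair 3 (0.199), each with 1 pair fewer.

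NFE2L2 (ENSG00000116044, chromosome 2, 177227595 to 177392697, minus strand) had 71.9, 72.7 and 77.6 CPM under DMSO and 63.6, 69.1 and 68.6 CPM under rapamycin with the HBG1 sgRNA, so those groups did not overlap. With the NT sgRNA it had 76.0 CPM under DMSO and 67.2 and 79.1 CPM under rapamycin, values on both sides of the single DMSO library. Its log2 fold change with the HBG1 sgRNA was -0.14 (95% interval -0.32 to 0.04, adjusted p = 0.366, edgeR), an interval that runs from 19.8% lower to 2.46% higher.

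MAFG (ENSG00000197063, chromosome 17, 81918270 to 81927714, minus strand), the small MAF partner, had 109.9, 112.1 and 117.0 CPM under DMSO and 90.2, 109.2 and 105.7 CPM under rapamycin with the HBG1 sgRNA. The 3 rapamycin libraries lay below the 3 DMSO libraries, with replicate 2 closest to them. The NT sgRNA libraries had 121.0 CPM under DMSO and 115.5 and 104.9 CPM under rapamycin. The log2 fold change with the HBG1 sgRNA was -0.15 (95% interval -0.33 to 0.03, adjusted p = 0.328, edgeR). These 3 regulators were the only ones of the 10 genes whose HBG1 sgRNA groups did not overlap, all with rapamycin lower, as for 13.1% of all tested genes. Without rapamycin replicate 1, the lowest library, the MAFG log2 fold change was -0.07.

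Of the 7 targets, TXNRD1 (ENSG00000198431, chromosome 12, 104215779 to 104350305, plus strand) had 229.5, 264.5 and 258.9 CPM under DMSO and 193.8, 222.4 and 237.2 CPM under rapamycin with the HBG1 sgRNA. The groups overlapped through replicate 1 under DMSO and replicate 3 under rapamycin, but in each pair the rapamycin library was lower. The log2 fold change was -0.20 (95% interval -0.38 to -0.03, adjusted p = 0.167, edgeR), and in the blocked fit it was -0.20 with an adjusted p of 0.020, a fall of 12.9%. The blocked fold change was -0.18 without pair 1 (adjusted p = 0.109) and -0.24 without pair 3 (0.051), each with 1 pair fewer. Without the block it was -0.13 when rapamycin replicate 1 was left out. The NT sgRNA libraries had 239.1 CPM under DMSO and 227.5 and 224.5 CPM under rapamycin.

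NQO1 (ENSG00000181019, chromosome 16, 69706996 to 69726951, minus strand) had 41.7, 45.02 and 50.3 CPM under DMSO and 37.8, 37.0 and 42.5 CPM under rapamycin with the HBG1 sgRNA. The highest rapamycin library exceeded the lowest DMSO library. With the NT sgRNA it had 45.1 CPM under DMSO and 29.4 and 39.0 CPM under rapamycin, and 29.4 was its lowest value in any library. Its log2 fold change with the HBG1 sgRNA was -0.22 (95% interval -0.46 to 0.02, adjusted p = 0.280 by edgeR, 0.061 with the block).

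OSGIN1 (ENSG00000140961, chromosome 16, 83948282 to 83966332, plus strand) had the widest relative range of the 10, with its highest library at 1.82 times its lowest. It had 7.71, 6.60 and 10.4 CPM under DMSO and 5.94, 6.94 and 5.72 CPM under rapamycin with the HBG1 sgRNA. In pair 2 the rapamycin library was the higher one. The NT sgRNA libraries had 9.96 CPM under DMSO and 5.72 and 5.73 CPM under rapamycin. The log2 fold change with the HBG1 sgRNA was -0.41 (95% interval -0.80 to -0.01, adjusted p = 0.225, edgeR), the lowest estimate and the broadest interval among the 10 genes. Without HBG1 sgRNA DMSO replicate 3, its highest library, the log2 fold change was -0.21 (adjusted p = 0.640).

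The glutathione synthesis genes had overlapping groups. GCLM (ENSG00000023909, chromosome 1, 93885205 to 93909456, minus strand) had 86.9, 87.9 and 93.5 CPM under DMSO and 72.4, 76.1 and 90.2 CPM under rapamycin with the HBG1 sgRNA. GCLC (ENSG00000001084, chromosome 6, 53497341 to 53616970, minus strand) had 24.6, 17.7 and 23.1 CPM under DMSO and 20.1, 19.9 and 19.8 CPM under rapamycin. The GCLC rapamycin libraries lay almost at one level, inside the DMSO range. The log2 fold changes were -0.17 (95% interval -0.36 to 0.02, adjusted p = 0.318, edgeR) for GCLM and -0.13 (-0.40 to 0.14, adjusted p = 0.629) for GCLC. Without rapamycin replicate 1 or 3 the GCLM value was -0.10 or -0.27, and without DMSO replicate 1 or 2 the GCLC value was -0.03 or -0.26.

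SRXN1 (ENSG00000271303, chromosome 20, 646615 to 653370, minus strand) had 47.3, 51.8 and 52.4 CPM under DMSO and 42.9, 48.8 and 45.2 CPM under rapamycin with the HBG1 sgRNA. Its log2 fold change was -0.15 (95% interval -0.33 to 0.04, adjusted p = 0.366, edgeR). SLC48A1 (ENSG00000211584, chromosome 12, 47753916 to 47782753, plus strand) was the exception in sign, with 35.8, 37.5 and 36.4 CPM under DMSO and 38.7, 36.2 and 37.9 CPM under rapamycin. Its log2 fold change was 0.04 (95% interval -0.14 to 0.22, adjusted p = 0.838, edgeR), so a fall of more than 9.37% or a rise of more than 16.9% lies outside the interval. Without DMSO replicate 1 or rapamycin replicate 1 its log2 fold change was 0.03 or 0.02.

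**Figure D2:**
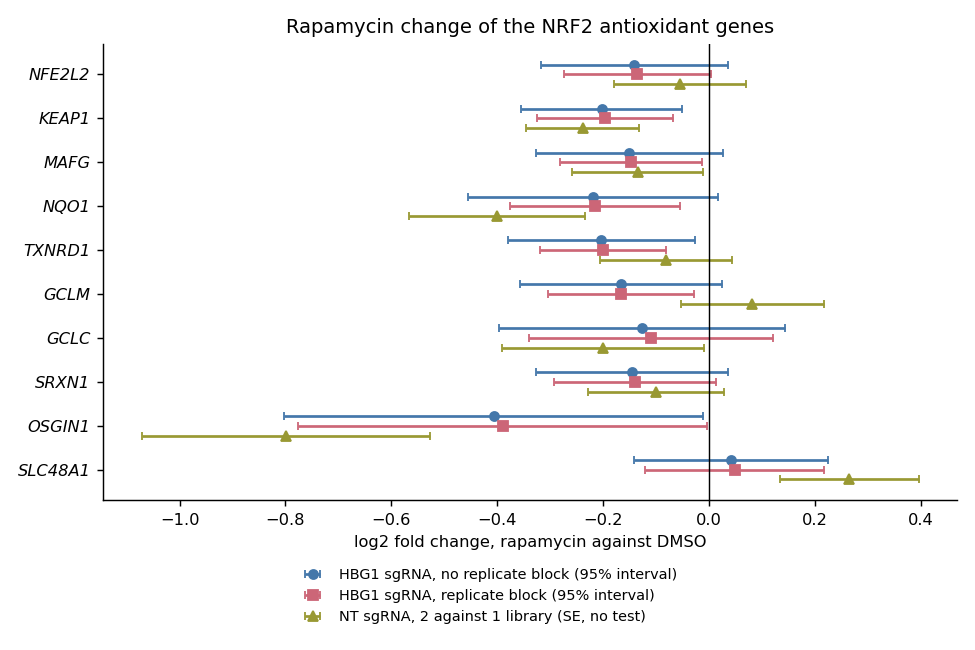
Log2 fold change, rapamycin over DMSO, of each gene with the HBG1 sgRNA without and with the replicate block (bars are 95% intervals) and with the NT sgRNA (bars are 1 SE, 2 against 1 library, no test). The HBG1 sgRNA estimates lie at or below -0.11 for 9 genes and at 0.04 and 0.05 for SLC48A1.

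Taken pair by pair on log2(CPM + 0.5), 7 of the 10 genes were lower under rapamycin in 3 of 3 HBG1 sgRNA pairs, as were 22.4% of all tested genes. Adding the NT sgRNA pair of replicate 2, KEAP1, MAFG, NQO1, TXNRD1, GCLM and SRXN1 were lower in 4 of 4 pairs, 6 of 10 beside 17.8% of all genes. KEAP1 differed by -0.23, -0.12 and -0.26 in the HBG1 sgRNA pairs and by -0.23 in the NT pair. TXNRD1 differed by -0.24, -0.25, -0.13 and -0.09 in the same order. GCLC and OSGIN1 were lower in 3 of 4 pairs, with the HBG1 sgRNA pair 2 the exception at 0.16 and 0.07, and NFE2L2 likewise, with the NT pair at 0.06.

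**Figure D3:**
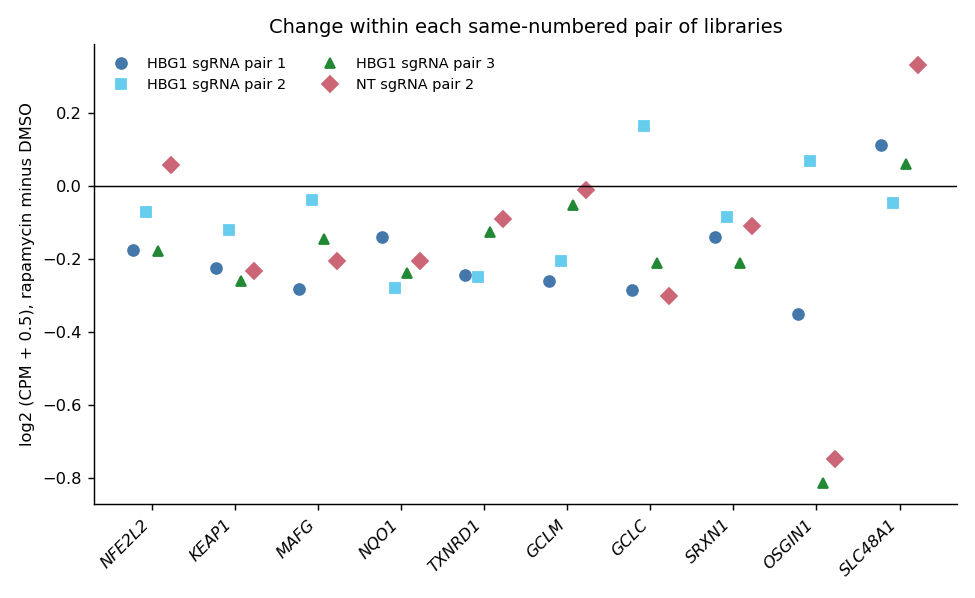
Difference of log2(CPM + 0.5), rapamycin minus DMSO, between libraries of the same replicate number, by gene (x axis). Symbols mark the 3 HBG1 sgRNA pairs and the NT sgRNA pair. The symbols of 6 genes all lie below 0, GCLM reaching -0.01 in the NT pair, and OSGIN1 spans -0.81 to 0.07.

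With the NT sgRNA the comparison had 1 DMSO library, so fold changes have no test. The log2 fold change was below 0 for 8 of the 10 genes, with a median of -0.12 and a median over all tested genes of 0.03. It was -0.24 (SE 0.107) for KEAP1, -0.40 (SE 0.166) for NQO1 and -0.80 (SE 0.272) for OSGIN1. It was above 0 for GCLM (0.08, SE 0.136) and SLC48A1 (0.26, SE 0.131). In the fit over all libraries they help set the spread, not the HBG1 sgRNA fold changes.

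A fit chosen after seeing the data estimated 1 rapamycin change over both guides, with pairs as blocks. NT sgRNA rapamycin replicate 1 has no DMSO partner, so it adds nothing to this estimate. The estimate rests on 3 HBG1 sgRNA pairs and 1 NT sgRNA pair, whose pairing was not checked. In this fit KEAP1, MAFG, NQO1, TXNRD1 and OSGIN1 fell, 5 of 10 beside 20.9% of all tested genes called and 11.5% called lower. The log2 fold changes were -0.21 for KEAP1 (adjusted p = 0.0029, edgeR), -0.17 for MAFG (0.022), -0.22 for NQO1 (0.019), -0.18 for TXNRD1 (0.0058) and -0.50 for OSGIN1 (0.015). NFE2L2, GCLM, GCLC, SRXN1 and SLC48A1 were not called, with adjusted p-values of 0.103 to 0.317. Without pair 1 of the HBG1 sgRNA, 4 of the 10 were called, KEAP1, NQO1, TXNRD1 and OSGIN1, all lower, beside 17.7% of all genes.

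The HBG1 and NT sgRNAs were then compared under rapamycin, 3 against 2 libraries, to ask whether the guide to the HBG1 promoter moved these genes. None was called (0 of 10, beside 0.0296% of all tested genes, edgeR), and DESeq2 called 0, beside 0.0621%. With edgeR 1 gene had an unadjusted p under 0.05, beside 6.27% of all genes. That gene was SLC48A1, with 38.7, 36.2 and 37.9 CPM with the HBG1 sgRNA and 42.1 and 46.5 CPM with the NT sgRNA. Its log2 difference was -0.24 (95% interval -0.44 to -0.03, adjusted p = 0.773). Groups did not overlap for SLC48A1 and for GCLC, at 18.98 and 16.4 CPM with the NT sgRNA, 2 of 10 beside 22.6% of all genes. The other differences ran from -0.12 for NFE2L2 (-0.32 to 0.07) to 0.20 for NQO1 (-0.07 to 0.47).

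Whether the rapamycin change differed between guides was tested as an interaction, in which the single NT sgRNA library with DMSO takes its spread from the other groups. None of the 10 was called (0 of 10, beside 0.00422% of all tested genes, edgeR), and none was under an unadjusted p of 0.05 (0 of 10, beside 2.86% of all genes). DESeq2 called 0 of the 10 and 0 of all 23675 genes. The estimates ran from -0.25 for GCLM (95% interval -0.59 to 0.10) to 0.39 for OSGIN1 (-0.31 to 1.10). The interval was -0.24 to 0.31 for KEAP1 and -0.44 to 0.20 for TXNRD1, which leaves room for differences larger than their rapamycin changes.

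Other genes of the pathway were taken as a list of 65, of which 60 were tested. Rapamycin with the HBG1 sgRNA called 8 of these 60, 4 lower and 4 higher, beside 4.05% lower and 2.75% higher among all tested genes, and their median log2 fold change was 0.06. With the block 17 of 58 were called, 8 lower and 9 higher, beside 9.62% and 7.43% of all genes, and without pair 1 the blocked count was 12 (beside 13.3%) and the count without the block 9 (beside 9.09%).

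The 4 called genes that were lower were listed under glutathione (2) and NADPH supply (2). SLC7A11, the cystine importer and also an ATF4 target, had 31.1, 26.0 and 31.3 CPM under DMSO and 15.9, 16.6 and 15.3 CPM under rapamycin. It fell by 0.89 on the log2 scale (SE 0.112, adjusted p = 0.00031, edgeR), and its NT sgRNA libraries had 31.4 CPM under DMSO and 21.9 and 19.2 CPM under rapamycin. IDH1, a cytosolic source of NADPH, fell by 0.70 (SE 0.095, adjusted p = 0.00045), from 33.7 to 36.6 CPM under DMSO to 20.9 to 23.0 CPM under rapamycin. GSR, glutathione reductase, fell by 0.40 (SE 0.073, adjusted p = 0.0042) and TKT, a transketolase of the pentose phosphate pathway, by 0.29 (SE 0.068, adjusted p = 0.017). For all 4 genes, all 5 rapamycin libraries lay below all 4 DMSO libraries, as for 8.29% of all tested genes. With the HBG1 sgRNA this is no separate support, since calls in the same libraries chose these genes.

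The called genes that were higher were 2 aldo-keto reductases and 2 transcription factors. AKR1C1 had 96.3, 83.4 and 88.4 CPM under DMSO and 149.3, 134.3 and 151.8 CPM under rapamycin. It rose by 0.70 on the log2 scale (SE 0.079, adjusted p = 0.00014, edgeR). AKR1C2 rose by 0.74 (SE 0.143, adjusted p = 0.0060). These genes are near-identical copies, so how their reads were divided is uncertain. NFE2, the erythroid CNC factor that also pairs with small MAFs, rose by 0.39 (SE 0.087, adjusted p = 0.014), from 209 to 256 CPM to 279 to 326 CPM. MAFF, another small MAF, rose by 0.62 (SE 0.167, adjusted p = 0.036) at 5.48 to 11.3 CPM.

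AKR1C1, AKR1C2, SLC7A11 and GSR are all known NRF2 targets, and the first pair rose where the second pair fell. In the NT sgRNA libraries the log2 fold changes had the same signs, 0.69 (SE 0.122) for AKR1C1, 0.81 (SE 0.225) for AKR1C2, -0.61 (SE 0.162) for SLC7A11 and -0.31 (SE 0.109) for GSR, with no test. Leaving out HBG1 sgRNA DMSO replicate 2 reduced the 8 called genes to 5. NFE2 and TKT lost their calls without HBG1 sgRNA DMSO replicate 2 or 3, and TKT also without rapamycin replicate 3 and in the block without pair 3 (0.061), with adjusted p-values of up to 0.086 and 0.088. MAFF lost its call under 11 of 22 alternatives, which were leaving out any 1 of HBG1 sgRNA DMSO replicates 1 and 2, HBG1 sgRNA rapamycin replicates 1, 2 and 3 and NT sgRNA rapamycin replicates 1 and 2, fitting only the groups compared, and all 3 fits without pair 1, with an adjusted p of up to 0.150. SLC7A11, IDH1, GSR, AKR1C1 and AKR1C2 were called under all 22 alternatives run.

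The other pathway genes named by rule were not called. BACH1, the repressor that competes with NRF2, had a log2 fold change of 0.13 (95% interval -0.04 to 0.31) and MAFK, a small MAF, 0.14 (-0.10 to 0.38). SQSTM1, whose protein p62 binds KEAP1, was at -0.15 (-0.28 to -0.01, adjusted p = 0.203, edgeR). TXN, thioredoxin, was at -0.02 (-0.25 to 0.21). HMOX1, haem oxygenase 1, did not pass the filter: it was counted at 0 in 7 libraries and at 1 and 3 in HBG1 sgRNA rapamycin replicates 2 and 3. A count of 0 allows up to 3 counts, which is 0.097 to 0.155 CPM in these libraries. GPX1, chosen after its values were seen as a gene that most cells express, was also counted only 0 to 12 times per library, and whether reads of these genes were missed in counting was not tested.

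By role among the other pathway genes, 4 of the 9 glutathione genes were below 0 (median 0.15), and 2 were called lower, beside 4.05% of all genes. Of those above 0, GPX1 (0.45, SE 1.07), GPX2 (0.33, SE 0.67) and GSTA4 (0.58, SE 0.54) were poorly measured. They reached at most 0.57, 0.98 and 2.27 CPM in any library, so the median leans on uncertain values. GSS (0.15, SE 0.074) and GSTM4 (0.17, SE 0.096) were also above 0. These names were chosen after their values were seen. With the block 2 of 8 were called lower, beside 9.62%. Of the 6 NADPH supply genes 3 were below 0 (median -0.12) and 2 were called lower, beside 4.05% of all genes. With the block 3 were called lower and 1 higher, beside 9.62% and 7.43% of all genes, and the added genes, named after their values were seen, were ME1 (-0.39, adjusted p = 0.021) and TALDO1 (0.24, adjusted p = 0.0055, edgeR). Of the 7 CNC, BACH and small MAF factors 2 were below 0 and 2 were called higher, beside 2.75% of all genes. With the block 3 were called higher, beside 7.43%. The block added BACH2 (0.50, adjusted p = 0.018, edgeR), also named after its values were seen.

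Of the other roles, 5 of the 6 genes listed under NRF2 degradation or its control had log2 fold changes below 0. So did 4 of the 9 thioredoxin and peroxiredoxin genes. In either group 0 genes were called, beside 6.8% of all genes, and 3 of each had an unadjusted p under 0.05, beside 20.8%. With the block, 1 degradation gene (GSK3B) and 2 thioredoxin and peroxiredoxin genes (PRDX1 and SOD2) were called, all lower, beside 9.62% of all genes lower. These names were chosen after their values were seen. The 6 haem and iron genes tested ran from -0.08 to 0.19 and 0 were called without or with the block, beside 6.8% and 17.1% of all genes. Among 17 detoxification and export genes 5 were below 0, beside 47.7% of all genes. The 2 called, AKR1C1 and AKR1C2, were higher (beside 2.75%), and with the block 5 of 16 were called, all higher (beside 7.43%), adding AKR1C3, ABCC4 and PIR, named after their values were seen.

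**Figure D4:**
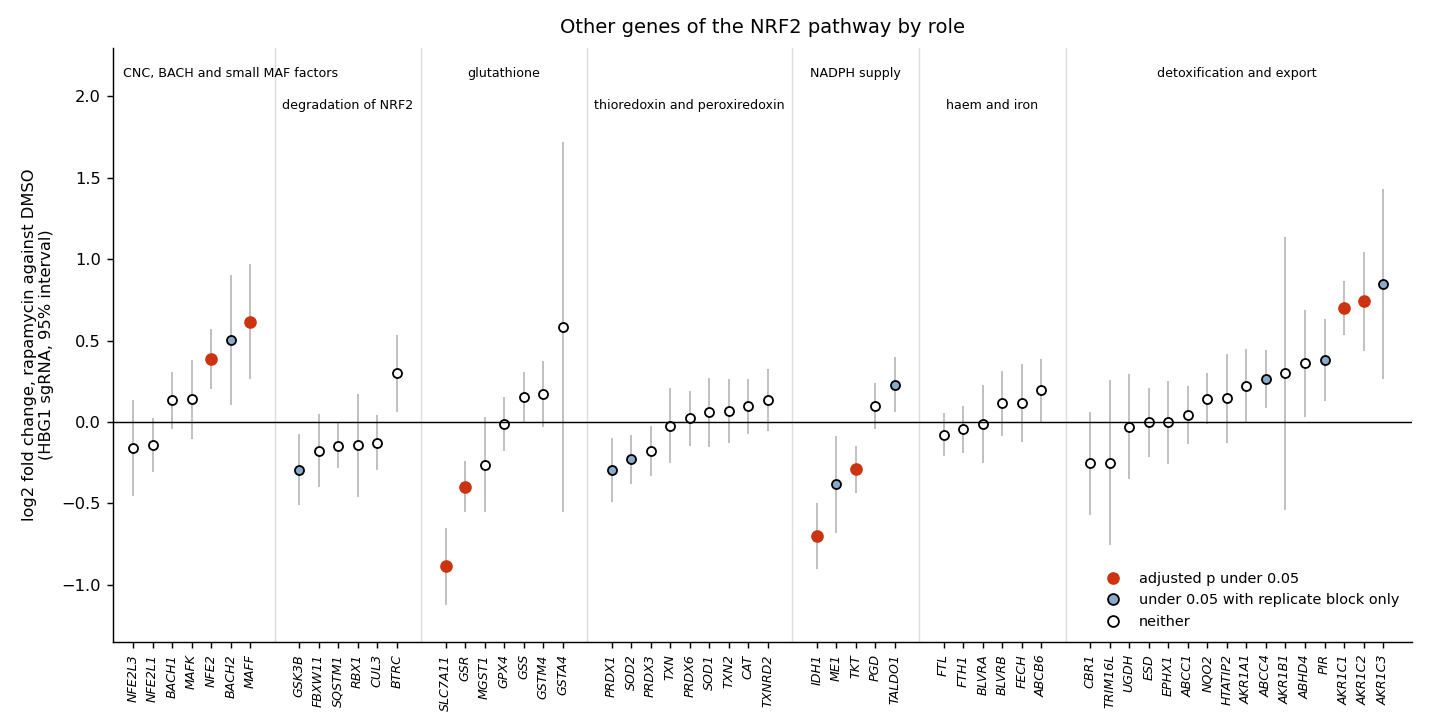
Log2 fold change, rapamycin over DMSO, in HBG1 sgRNA cells for 56 other pathway genes whose mean log2 CPM was 0 or more, grouped by role, with 95% intervals. Filled red points were called, blue points only with the replicate block. The lowest called gene is SLC7A11 at -0.89 and the highest is AKR1C2 at 0.74.

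Summed over the 7 targets, the level was 473, 511 and 525 CPM in the HBG1 sgRNA libraries with DMSO and 412, 447 and 479 CPM with rapamycin. The NT sgRNA libraries had 480.0 CPM with DMSO and 460 and 457 CPM with rapamycin. The HBG1 sgRNA groups overlapped through the highest rapamycin and the lowest DMSO library.

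Likeness to the mean profile of the 7 targets, centred on log2 CPM over the 9 libraries, was measured as the root mean square difference. Each target is part of that mean, which the regulators and outside genes are not. Of the targets SRXN1 was nearest to that profile at 0.063 and OSGIN1 and SLC48A1 farthest at 0.231 and 0.193. The regulators lay at 0.077 for KEAP1, 0.085 for NFE2L2 and 0.091 for MAFG. Of 11396 genes outside the pathway lists, with a median of 0.164, the nearest were TMED7 (0.036), LUC7L2 (0.037), FBXO11 (0.037), BRAT1 (0.038) and TOLLIP (0.038). Their log2 fold changes under rapamycin with the HBG1 sgRNA were -0.18, -0.18, -0.20, -0.14 and -0.14, and none was called, with adjusted p-values of 0.159 to 0.450 (edgeR). These fold changes largely follow from picking the genes by likeness over the same 9 libraries.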

How the data were processed

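The authors deposited raw counts of reads for each Ensembl gene in all 9 libraries as a single table of whole numbers. Per the labels' protocols, mRNA was selected on poly-T beads before NEBNext Ultra library preparation. STAR 2.7.3a, featureCounts, Subread 2.0.0, R 4.1.2, limma 3.34.9, edgeR 3.24.0 and GRCh38 (hg38) are named, with no role or order, per the submitters' processing notes. The strand setting and the handling of multi-mapping or overlapping reads are not given in the sources used here, so genes with overlapping exons or near-identical copies are uncertain.

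Of 58347 gene IDs, 58039 were found in GENCODE 29 (GRCh38), which gave symbols, positions and exon lengths. The sample titles gave groups and replicate numbers, and no replicates were repeats of 1 library (chi-square per gene 4.48 to 16.3). The tests used edgeR 4.0.16 under R 4.3.3. Here filterByExpr at a minimum count of 10 kept 23675 genes, TMM scaled the libraries, and glmQLFit and glmQLFTest were fitted to all 9 libraries with 1 mean per group. P-values were adjusted by Benjamini-Hochberg over all tested genes, and calls were made under 0.05. The standard error is the log2 fold change over the square root of F, with 95% intervals from the t distribution. Precision is limited by 1 to 3 libraries per group, and the rapamycin comparison with the NT sgRNA (1 DMSO library) has no test; in the interaction that library takes its spread from the other groups. The fits were also run on simulated counts without a replicate effect. The changes set there were larger than those of the NRF2 genes in the fit to all 9 libraries. That run therefore does not show whether changes of this size would be found.

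Replicate numbers were checked for pairing on deviations from group means over the 11498 genes whose mean log2 CPM reached 3. Same-numbered HBG1 sgRNA libraries correlated at 0.553, 0.278 and 0.231, all over the limit of 0.1. Replicates 2 and 3 also passed this limit when crossed (0.258 and 0.194). The check thus matched replicate 1 across treatments but cannot show that numbers 2 and 3 pair their libraries. For those libraries the block rests on the replicate numbers alone. Across guides, for rapamycin replicates 1 and 2, both values were -0.073. With 2 replicates per guide these values are equal by construction, so they count as 1 check. The fits without the block were kept as the primary ones.

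The 10 genes, the list of 65 pathway genes and the marker lists were chosen with earlier results of these data known. Named genes were all 10, up to 12 called pathway genes with the smallest adjusted p, a few always named (HMOX1, SLC7A11, TXN, SQSTM1, BACH1, MAFF and MAFK, and 1 not reported here) and the 5 genes nearest in profile. Alternatives were RLE scaling, no filter on low counts, DESeq2 1.42.0, only the groups compared, replicate blocks, an additive model and leaving out each library. Fits over both guides with pairs as blocks, and fits without 1 pair, were chosen after seeing the data.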

Additional observations from a re-analysis of the deposited data

How the results depend on the processing

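The count of called NRF2 antioxidant genes with the HBG1 sgRNA (0 of 10) became 2 with the replicate block, 2 with the replicate block within guide and 2 in the additive model, and 5 with the block over both guides, 4 with that block without HBG1 sgRNA pair 1 and 4 with the HBG1 sgRNA block without pair 2, the last 3 chosen after seeing the data. It was 0 in all 9 fits that left out a library. The count for other pathway genes (8) became 13 with DESeq2, 17 with the replicate block, 17 with the block within guide, 19 in the additive model, 24 with the block over both guides, 21 with that block without pair 1 and 14 with the block without pair 2, and ranged from 5 to 10 when a library was left out. Over all genes the calls in the same order were 1609 unaltered (6.8% of the genes in that fit), 2179 with DESeq2 (14.6%) and 3441 with the replicate block (17.1%). They were 3547 within guide (15%), 3263 in the additive model (13.8%), 4952 and 4102 over both guides (20.9% and 17.7%) and 3199 without pair 2 (15.5%). With a library left out they were 664 to 1731 (2.85% to 7.57%). The cause of these shifts was not tested. For the guides under rapamycin and for the interaction the block changed no call. Signs changed only for values that were not called. With a library left out, the log2 fold change of TXN under rapamycin ranged from -0.141 to 0.116 (0.0778 with the block without pair 2), and the guide difference from -0.119 to 0.0251 for TXNRD1 and from -0.0120 to 0.0860 for SRXN1. The interaction ranged from -0.197 to 0.0354 for NFE2L2, from -0.00793 to 0.0750 for KEAP1, from -0.0827 to 0.0637 for MAFG, from -0.00938 to 0.398 for NQO1 and from -0.0557 to 0.185 for GCLC. With the block within guide it was 0.0509 for MAFG and -0.0136 for NQO1. Without HBG1 sgRNA pair 1 and without the block the guide difference was 0.0248 for TXNRD1 and the interaction 0.0425 for MAFG. The median log2 fold change of the 10 genes with the NT sgRNA ranged from -0.16 to -0.10 over its alternatives. The interaction was not run without the only NT sgRNA library with DMSO, nor on fewer groups, since it needs all 4.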
